A study of Mus musculus with 12 samples.

Results

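The comparison set 8 livers of mice with Khdc3-null grandparents against 4 livers of mice with only wild-type ancestors, and asked what both lines of descent had in common. The descendants comprised 4 WTMM mice, whose grandmothers on both sides lacked Khdc3, and 4 WTPP mice, whose grandfathers on both sides lacked it. The other 4 were WT mice. All 12 mice were female and carried wild-type Khdc3 themselves, so the groups differed in ancestry and not in their own genotype at that gene. Liver RNA was sequenced with 1 library per mouse. Strain and age are not in the labels, and the labels do not say whether the mice of a group were littermates, so the p-values measure the spread between these libraries. All 12 libraries of the series entered the comparison, with equal weight for the WTMM and the WTPP mean. It covered the 14473 of 25069 genes with a mean of at least 10 normalized counts, a normalized count being the reads of a gene divided by a factor of its library.

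Khdc3 encodes a protein of the subcortical maternal complex, an assembly of oocytes and early embryos that is important for the first divisions after fertilization. The liver is made mostly of hepatocytes, which burn or store fatty acids, release glucose, detoxify drugs and secrete plasma proteins, beside resident macrophages called Kupffer cells, lymphocytes and sinusoidal endothelium. During fasting, hepatocytes raise gluconeogenesis and, through the receptor PPARA, fatty acid oxidation. During inflammation, they secrete acute-phase proteins.

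Khdc3 was listed at 0, 0, 3.41 and 0 normalized counts in the livers WTMM 6, 7, 8 and 9, at 0, 0, 1.11 and 1.83 in the livers WTPP 2, 3, 6 and 7, and at 0.779, 0, 0 and 0 in WT 116, 117, 118 and 120. It lay under the expression minimum and was not tested, so it does not check the labels.

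Library totals ran from 25070718 to 33924490 assigned reads in descendants and from 28028650 to 35843972 in WT. Total reads, genes detected, the share of the 10 highest genes and the share of mitochondrially encoded genes did not differ past the threshold (two-sided exact permutation test over all arrangements of the libraries, p = 0.148, 0.099, 0.139 and 0.426; 0.197, 0.197, 0.197 and 0.426 after Benjamini-Hochberg adjustment over the 4 measures). WT 117 had the highest mitochondrial share, 5.96%, against 3.83% to 4.92% in descendants and 3.88% to 4.31% in the other WT libraries. WT 116 had the highest summed markers of pancreatic acinar cells, Kupffer cells, T, NK and B cells and neutrophils of all 12 libraries. The library numbers in the labels run in separate blocks for descendants and for WT, so anything that followed these numbers cannot be told apart from ancestry. The labels name the cell type as hepatocyte, but markers of Kupffer cells, lymphocytes and endothelium were present in every library.

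Against WT, 793 genes were higher in descendants, 5.48% of those tested, and 1002 were lower, 6.92% (limma, Benjamini-Hochberg adjusted p of at most 0.05). The median fold of the higher genes was 1.39 and the median fold of the lower genes 1.62, while the median log2 fold change of all genes tested was -0.0032. Fold changes were taken after adding 1 to each normalized count, so those of genes with low counts are understated. At least 2-fold differences were found for 116 higher and 269 lower genes, and at least 4-fold differences for 31 and 24. All 8 descendant libraries lay above all 4 WT libraries for 418 genes, 2.89% of those tested, and below them for 554 genes, 3.83%. Higher calls leaned to abundant genes: in the top quartile of expression 335 genes were higher and 195 lower, and in the bottom quartile 100 were higher and 238 lower. Both counts depended on single WT libraries. Without WT 116 there were 358 higher and 457 lower genes, without WT 118 there were 432 and 521, and 791 of the 1795 calls were made in the same direction without WT 116.

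**Figure D1:**
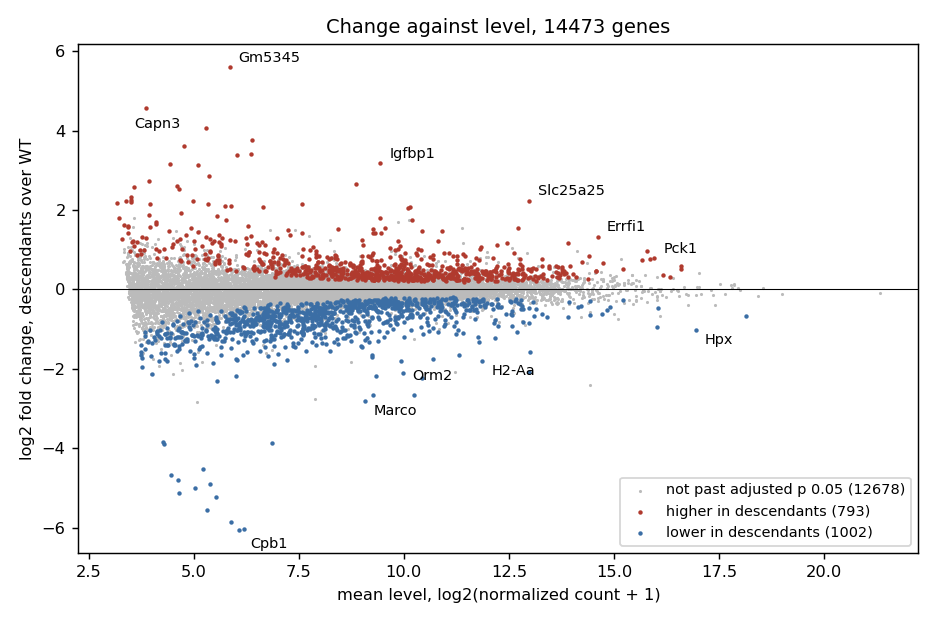
Log2 fold change of descendants over WT (vertical axis) against the mean level of each of 14473 tested genes on the log2(normalized count + 1) scale (horizontal axis). Red points are the 793 higher genes, blue points the 1002 lower genes and grey points the genes not past an adjusted p of 0.05; the largest falls are a separate group of genes near -4 to -6, among them Cpb1.

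The genes named as higher in both lineages ranged from a protease and a glycogen targeting subunit to a mitochondrial carrier. That carrier, Slc25a25, exchanges ATP-Mg for phosphate. It had 12849, 18618, 13064 and 12432 normalized counts in the livers WTMM 6, 7, 8 and 9. The livers WTPP 2, 3, 6 and 7 had 9984, 10103, 13070.0 and 14382. It had 2192, 5354, 1353 and 3424 in WT 116, 117, 118 and 120. Every descendant liver was above every WT liver, and the rise was 4.72-fold (log2 fold change 2.24 ± 0.27 SE, limma adjusted p = 0.000602).

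Dusp1, a phosphatase that switches off MAP kinases, had a lowest, median and highest value of 783, 1817 and 2765 in descendants. In WT 116, 117, 118 and 120 it had 339, 539, 325 and 428 normalized counts. The groups did not overlap and the rise was 4.17-fold (2.06 ± 0.25 SE on the log2 scale, limma adjusted p = 0.000626). Gadd45g, a growth arrest and stress gene, had 265, 673 and 1944 as its lowest, median and highest descendant value, against 236, 98, 68.9 and 71.8 in the WT libraries. The highest WT library, WT 116, came close to the lowest descendant, WTPP 6, and the rise was 6.28-fold (2.65 ± 0.51 SE, limma adjusted p = 0.00545).

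The promoters of these 3 genes are shown because they carry 3 of the largest rises common to both lineages. They come from the RefSeq promoter table of GRCm38.p6, span 250 bases before to 50 bases after the start and are written 5′ to 3′ on the strand of the gene. Capitals mark matches, on either strand, to 8 motifs: the E-box core CACGTG, the cyclic AMP response element TGACGTCA, the palindrome TTCNNNGAA, the heat shock motif GAANNTTC, the D-box TTATGTAA, the nuclear receptor half-site AGGTCA, the TATA box as TATAAA and the CCAAT box. No marked match overlaps another.
Gadd45g, plus strand, chr13:51846425-51846724: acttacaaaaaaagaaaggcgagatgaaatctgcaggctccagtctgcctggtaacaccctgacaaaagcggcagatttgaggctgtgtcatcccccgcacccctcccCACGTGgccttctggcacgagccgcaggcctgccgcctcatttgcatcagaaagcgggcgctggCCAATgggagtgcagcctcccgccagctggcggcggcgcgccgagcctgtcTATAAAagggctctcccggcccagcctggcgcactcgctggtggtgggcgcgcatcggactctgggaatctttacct
Dusp1, minus strand, chr17:26508423-26508722: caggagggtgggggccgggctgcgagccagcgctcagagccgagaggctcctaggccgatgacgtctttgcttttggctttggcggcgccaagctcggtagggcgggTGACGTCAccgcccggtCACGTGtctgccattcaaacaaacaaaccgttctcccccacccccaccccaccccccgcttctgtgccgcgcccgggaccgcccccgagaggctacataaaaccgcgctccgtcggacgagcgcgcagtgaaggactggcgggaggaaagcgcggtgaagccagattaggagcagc
Slc25a25, minus strand, chr2:32451421-32451720: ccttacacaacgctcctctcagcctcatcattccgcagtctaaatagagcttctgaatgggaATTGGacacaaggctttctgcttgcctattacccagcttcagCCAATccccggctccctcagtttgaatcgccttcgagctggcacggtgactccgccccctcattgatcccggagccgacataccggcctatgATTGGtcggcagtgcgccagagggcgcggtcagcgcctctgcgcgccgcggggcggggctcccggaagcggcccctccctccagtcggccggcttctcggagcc
CACGTG began at position -142 in Gadd45g and at -126 in Dusp1, where TGACGTCA began at -143, and the Slc25a25 window held CCAAT or its complement at -188, -146 and -54. Over all 27025 promoters of the table, CACGTG was in 7.19%, TGACGTCA in 1.84%, TTCNNNGAA in 8.36%, GAANNTTC in 7.95%, TTATGTAA in 0.966%, AGGTCA in 16%, TATAAA in 14.2% and CCAAT in 37.9%. Promoters were found for 601 of the 793 higher genes, 75.8%, and shares over the gene sets were therefore not computed. A match is a stretch of letters and not a measured binding site.

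Several other metabolic and signalling genes rose in both lineages without overlap. Ppp1r3g, which targets a phosphatase to glycogen, had 24.8, 75.4 and 749 as its lowest, median and highest descendant value, against 7.79, 3.03, 6.27 and 4.68 in the WT libraries. Its rise was 13.5-fold (3.76 ± 0.70 SE, limma adjusted p = 0.00458), and WTPP 7 was far above the other descendants. Voom weighting on the recovered reads ended this call (adjusted p = 0.114), as did leaving out WT 116 and WT 117 together (adjusted p = 0.0555). Capn3, a calpain protease, had 81.7, 118, 56.9 and 192 normalized counts in the livers of WTMM mice and 29.9, 66.4, 11.1 and 32.9 in the WTPP livers. In WT it had 0.779, 5.05, 1.04 and 4.68, and its rise was 16.7-fold (4.06 ± 0.48 SE, limma adjusted p = 0.000455).

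Qpct, glutaminyl cyclase, which caps the amino end of secreted peptides, was apart in every library. It had 662, 952 and 1973 as its lowest, median and highest value in descendants and 263, 284, 306 and 324 in the WT libraries. The rise was 3.49-fold (1.80 ± 0.16 SE, limma adjusted p = 8.69e-05). Errfi1, a feedback inhibitor of the EGF receptor, had 29981, 35477 and 47009 in descendants and 12523, 15263, 12780.0 and 16194 in WT. It rose 2.51-fold (1.33 ± 0.13 SE, limma adjusted p = 0.00017).

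The transcription factor gene Cebpb and the pro-apoptotic gene Bmf rose by similar amounts. Cebpb, a regulator of hepatic metabolism and of acute-phase genes, averaged 1017 ± 302 in descendants (SD, n = 8) and 372 ± 65.8 in WT (SD, n = 4), a 2.65-fold rise. Bmf rose 2.70-fold. The limma adjusted p of Cebpb was 0.000864 and that of Bmf 0.00215. Aqp4, a water channel, rose 3.03-fold (limma adjusted p = 0.00403), and its call was lost when WT 116 and WT 117 were both left out (adjusted p = 0.0565).

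Trmt9b, a putative tRNA methyltransferase, rose in both lineages but not to the same level. It had 51.5, 58.1, 55.7 and 49.3 normalized counts in the WTMM livers and 152, 188, 105 and 113 in the WTPP livers. In WT it had 14.8, 21.2, 12.5 and 32.8. All 3 groups were apart, the pooled rise was 4.32-fold, and WTMM lay 1.33 below WTPP on the log2 scale (limma adjusted p = 0.0152 for the difference between lineages).

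**Figure D2:**
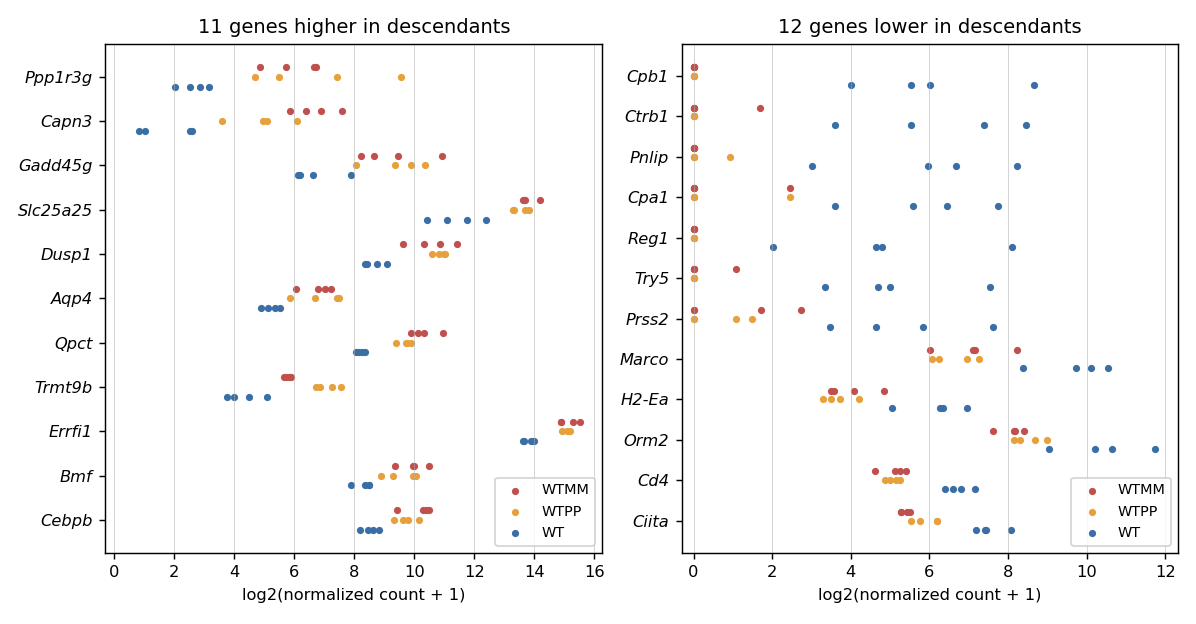
Level of 11 named genes that were higher (left) and the 12 that were lower (right) in both lineages, in every library, as log2(normalized count + 1) on the horizontal axis. Points are libraries of WTMM (red, upper row of a gene), WTPP (orange, middle row) and WT (blue, lower row); descendants and WT do not overlap for any of these genes, which the rule for naming them required.

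The largest falls were transcripts of the digestive enzymes of the exocrine pancreas, which were close to absent in descendants. Cpb1, a carboxypeptidase, had 0 reads in all 8 descendants and 407, 15.2, 44.9 and 63.2 normalized counts in WT 116, 117, 118 and 120. Its 662 WT reads, pooled over the livers, set against a floor of 3 reads over the descendants make it at least 392-fold lower. This bound leaves out the spread between mice, and WT 116 was far above the other WT livers. On the same footing, the regenerating protein gene Reg1 was at least 245-fold lower and Clps, which encodes the cofactor of pancreatic lipase, at least 139.8-fold lower. Ctrb1, chymotrypsinogen, had 2 reads in descendants and 719 in WT, a ratio of 639 (exact Clopper-Pearson 95% interval 176 to 5285). Pnlip, pancreatic lipase, had 1 read in descendants and 579 in WT. Its ratio was 1029, with an interval of 184 to 40705. Both ratios pool the reads of a group, and their intervals cover counting error and not the spread between mice.

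Of the 13 tested acinar markers, 11 fell and 0 rose, beside 6.92% and 5.48% of all genes tested. The median log2 fold change was -4.89, or -5.01 with the 3 genes at 0 set to their bound. The 11 that fell also include the trypsinogens Prss2 and Try5, the carboxypeptidase Cpa1, the lipases Pnliprp1 and Cel and the amylase Amy2b. Together these 11 held 25 reads in the 8 descendants, with 0 to 13 per library, and 4345 reads in the 4 WT libraries, with 100 to 3087 per library. WT 116 supplied most of them, and the other 3 WT libraries held 1258. Without WT 116 all 11 were still called lower. The expression minimum was still taken over all 12 libraries in that fit, so WT 116 helped decide which acinar genes were tested. Cela1, an elastase that liver libraries contained at 1226 normalized counts in descendants and 1328 in WT, did not pass (limma adjusted p = 0.582). The source of the acinar reads was not tested.

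Other shared falls were in genes of macrophages, T cells, antigen presentation and the acute phase. Marco, a scavenger receptor of macrophages, had 63.4, 130.4 and 300.2 as its lowest, median and highest descendant value, against 1494, 330.4, 854 and 1101 in the WT libraries. The fall was 7.01-fold (-2.81 ± 0.41 SE, limma adjusted p = 0.00135). Cd4, the helper T cell coreceptor, had 23.5, 34.2 and 41.4 in descendants, against 142, 83.9, 111 and 96.7 in WT. It was 3.16-fold lower (-1.66 ± 0.18 SE, limma adjusted p = 0.000283). Against WT the log2 fold change of Cd4 was -1.64 for WTMM and -1.68 for WTPP, which share the WT libraries.

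Orm2, an orosomucoid of the acute phase, had 196, 301 and 504.4 as its lowest, median and highest value in descendants. WT 116, 117, 118 and 120 had 3441, 528, 1610.0 and 1181. The fall was 4.30-fold (-2.10 ± 0.36 SE, limma adjusted p = 0.0027), and the lowest WT library, WT 117, lay just above the highest descendant. Ciita, the master activator of class II genes, had 37.8, 44.8 and 72.2 in descendants and 271, 146, 173 and 170.1 in WT. It was 3.71-fold lower (-1.89 ± 0.18 SE, limma adjusted p = 0.000159). H2-Ea, annotated in GENCODE as a polymorphic pseudogene of the class II region, was 4.97-fold lower.

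**Figure D3:**
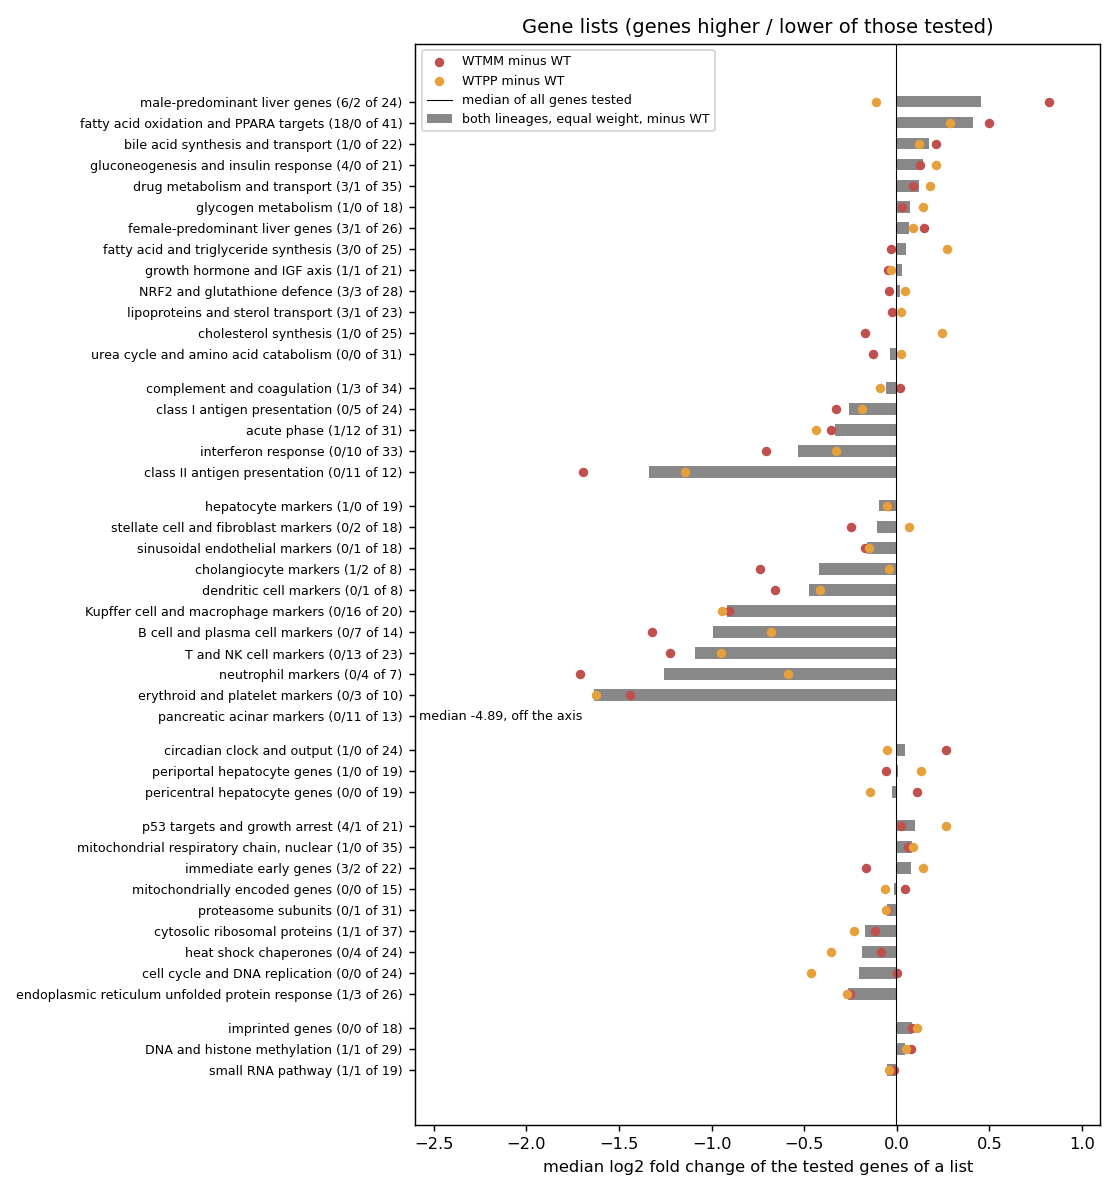
Median log2 fold change of the tested genes in each gene list with at least 7 of them, for both lineages together (grey bars), WTMM minus WT (red points) and WTPP minus WT (orange points), which share the 4 WT libraries. Numbers after a list give the genes higher and lower of those tested; acinar markers lie lowest, off the axis at -4.89, followed by erythroid, class II and neutrophil lists, and fatty acid oxidation is among the highest.

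Fatty acid oxidation was the metabolic list with most calls, all in one direction. Of its 41 genes, 18 rose and 0 fell, beside 5.48% and 6.92% of all genes tested. A positive log2 fold change was found for 40, and the median was 0.41, beside -0.0032 for all genes tested. The rises were small. Decr2, a peroxisomal dienoyl-CoA reductase, had 8466, 9731 and 11350.0 as its lowest, median and highest value in descendants and 6139, 6548, 7176 and 7580.0 in WT. It rose 1.40-fold without overlap (limma adjusted p = 0.00213). Angptl4, which inhibits lipoprotein lipase and is induced by fasting, rose 1.90-fold (0.93 ± 0.18 SE, limma adjusted p = 0.00514), with WTPP 6 below 2 WT libraries.

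The genes of that list that rose cover several steps of the pathway. They include the carnitine carrier Slc25a20 at 1.31-fold, the mitochondrial dehydrogenase Acadm at 1.35-fold, the peroxisomal enzyme Ehhadh at 1.49-fold and the thioesterase Acot4 at 1.74-fold. Summed over the list, descendants held 524230.0, 625678 and 758748 normalized counts as lowest, median and highest, against 428903, 491460.0, 477292 and 453844 in WT, without overlap. The count of 18 was 4 without WT 116, 9 without WT 118, 11 without WT 120 and 5 without WT 116 and WT 117 together, while the median was 0.36 and 0.41. WTMM had a median of 0.50 and WTPP of 0.29.

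A minority of the genes of glucose release passed the test, and those that did were higher. Of 21 genes of gluconeogenesis and the insulin response, 4 rose and 0 fell, beside 5.48% and 6.92% of all genes tested. The median was 0.14, and 2 rose without WT 116 or without WT 118. Pck1, the gatekeeper of gluconeogenesis, had 90130.0, 105116, 102131 and 97021 normalized counts in the WTMM livers. The WTPP livers had 52703, 74343, 58335 and 67993. In WT it had 44957, 44989, 54689 and 38736. It rose 1.73-fold overall (0.79 ± 0.12 SE, limma adjusted p = 0.0017), and the WTPP libraries overlapped WT while the WTMM libraries did not. The lineages differed by 0.65 (limma adjusted p = 0.0218). G6pc, which releases free glucose, rose 2.90-fold (limma adjusted p = 0.0145), a call lost without WT 116 or WT 118.

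Igfbp1, a secreted IGF-binding protein repressed by insulin, varied widely among the descendants. It had 104, 1237 and 2334 as its lowest, median and highest descendant value, and 96.6, 148, 130 and 64.8 in WT. The rise was 9.07-fold (3.18 ± 0.53 SE, limma adjusted p = 0.00246), and 1 descendant, WTMM 9, lay within the WT range. Tat, a tyrosine aminotransferase induced by glucocorticoids, rose 1.66-fold, a call lost without WT 116 (limma adjusted p = 0.0926) and without WT 118 (0.0797).

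Lipid synthesis and transport gave isolated calls, beside 5.48% higher and 6.92% lower among all genes tested. In fatty acid and triglyceride synthesis, 3 of 25 genes rose and 0 fell: Me1, which makes NADPH for lipogenesis, by 1.72-fold, Mlxipl, the glucose-sensing factor ChREBP, by 1.45-fold, and the elongase Elovl5 by 1.32-fold. In lipoprotein and sterol transport, 3 of 23 rose and 1 fell. The sterol exporters Abcg8 and Abcg5 rose 1.78-fold and 1.45-fold (limma adjusted p = 0.00193 and 0.00627), and Abcg1 fell. Sc5d was the 1 gene of 25 in cholesterol synthesis that rose, and Klb, the FGF15 coreceptor, the 1 of 22 in bile acid synthesis and transport. Both calls were lost without WT 116 (limma adjusted p = 0.154 and 0.0981).

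Few drug and redox genes passed, in both directions. In drug metabolism 3 of 35 rose and 1 fell, set beside 5.48% and 6.92% of all genes tested. Nr1i3, which encodes the xenobiotic receptor CAR, had 7366, 8325 and 10318 in descendants as lowest, median and highest, and 5048, 6393, 4994 and 5124 in WT. It rose 1.56-fold without overlap (0.64 ± 0.09 SE, limma adjusted p = 0.00125). Among 28 NRF2 and glutathione genes 3 rose and 3 fell, and without WT 118 these were 0 and 1. Nfe2l2, NRF2 itself, rose 1.30-fold, a call lost without WT 116 (adjusted p = 0.0587) and without WT 118 (0.0544), while Hmox1, heme oxygenase and also abundant in macrophages, was 2.18-fold lower (limma adjusted p = 0.00224).

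Male-predominant genes differed between the lineages in these female livers. Of 24 male-predominant genes 6 rose and 2 fell, beside 5.48% and 6.92% of all genes tested. Their median of 0.46 came from 0.82 in WTMM and -0.11 in WTPP, both set against the same WT libraries. The rises numbered 2 without WT 116 and 3 without WT 118 or without WTMM 7. In the direct test 12 of the 24 differed between the lineages, beside 4.17% of all genes tested. Such differences were not particular to this list. They were also found for 7 of 26 female-predominant, 7 of 35 drug metabolism, 6 of 24 class I and 6 of 24 heat shock genes. Mup3, a major urinary protein, rose 1.96-fold, and its lineages differed by 0.78 (limma adjusted p = 0.027). Major urinary protein genes are near-identical, so the division of reads among them is uncertain. Of 26 female-predominant genes 3 rose and 1 fell, set beside the same 5.48% and 6.92%. Cyp2c69 rose 2.27-fold, and the estrogen sulfotransferase Sult1e1 fell 14.5-fold (limma adjusted p = 0.0238). Sult1e1 no longer passed the threshold when WT 116, WT 118 or WT 120 was removed from the comparison. The 31 genes of the urea cycle and amino acid catabolism had 0 calls, and neither had the 19 pericentral genes. The most changed gene of the urea cycle list was Cps1, at 0.757 of the WT level (limma adjusted p = 0.0678).

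Acute-phase genes were lower in descendants as a minority of a list with a median of -0.33. Of 31 genes 12 fell and 1, Cebpb, rose, beside 6.92% and 5.48% of all genes tested. Hpx, hemopexin, had 72838, 81168 and 94084 as its lowest, median and highest value in descendants, against 240064, 132697, 156905 and 149243 in WT. The fall was 2.03-fold without overlap (-1.02 ± 0.15 SE, limma adjusted p = 0.00129). Lcn2, lipocalin 2, fell 6.36-fold, Saa1, serum amyloid A, fell 3.34-fold and haptoglobin (Hp) fell 1.93-fold (limma adjusted p = 0.00421, 0.0213 and 0.00755). WT 116 was the highest library at Hpx and Orm2, and without it 5 genes of the list fell, against 6 without WT 118.

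Complement and coagulation genes were mostly within the spread of the libraries. Of 34 genes 3 fell and 1 rose, beside 6.92% and 5.48% of all genes tested. C3, the central complement protein, had 181289, 224360.0 and 243511 in descendants as lowest, median and highest, against 384556, 389221, 362354 and 275347 in WT. It fell 1.58-fold (limma adjusted p = 0.0115) without overlap, although the call was lost with no filter on low values (0.085) and without WT 116 and WT 117 together (0.108). Klkb1, plasma kallikrein, rose 1.20-fold, a call lost without WT 116 (0.0651) or WT 118 (0.0768).

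Class II antigen presentation fell almost as a whole. Of 12 tested genes 11 fell, beside 6.92% of all genes tested, with a median of -1.34, and 8 fell without WT 116. H2-Aa, the alpha chain of the class II molecule I-A, had 1238, 1176, 1043 and 1765 normalized counts in the WTMM livers. The WTPP livers had 2156, 1529, 1721 and 2371. It had 9443, 3456, 6298 and 4204 in WT, a 3.46-fold fall (-1.79 ± 0.23 SE, limma adjusted p = 0.000688). The beta chain H2-Ab1 fell 3.11-fold, and Cd74, the invariant chain, fell 2.98-fold with the same adjusted p as H2-Aa.

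H2-Eb1, chosen after its values were seen, was the 1 class II gene not past the threshold, and its lineages lay on either side of WT. The WTMM livers had 25.8, 33.4, 19.3 and 19.7 normalized counts. The WTPP livers had 749, 516, 624 and 832, and the WT livers 199, 59.6, 98.2 and 92.8. The 3 groups did not overlap, and the lineages differed by -4.75 on the log2 scale (limma adjusted p = 4.08e-06). Of 24 class I genes 5 fell, beside 6.92% of all genes tested. Among them were H2-D1, by 1.55-fold, and Tap2, which loads peptides, by 1.34-fold. Reads of near-identical histocompatibility genes may be divided unevenly.

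Interferon response genes were lower in part, beside 6.92% lower among all genes tested. Of 33 genes 10 fell and 0 rose, with a median of -0.53 that was -0.71 in WTMM and -0.33 in WTPP. Irf1, a transcription factor induced by interferon, had 858, 1037 and 1289 as its lowest, median and highest value in descendants, against 2265, 1661, 1872 and 2102 in WT. The fall was 1.86-fold (limma adjusted p = 0.000638). The list had 5 falls without WT 116 or WT 120, 6 without WT 118 and 17 without WT 117, and without WT 116 and WT 117 it had 11.

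Markers of leukocytes fell with these immune genes. In liver pieces, fewer cells of a type and less RNA per cell cannot be told apart. Over the leukocyte lists together, 41 of 72 tested genes fell and 0 rose, 56.9% against a background of 6.92%, with a median of -0.98. Kupffer cell and macrophage markers had 16 falls of 20 genes and a median of -0.92, T and NK cell markers 13 of 23 and -1.09, B cell and plasma cell markers 7 of 14 and -0.99, neutrophil markers 4 of 7 and -1.26, and dendritic cell markers 1 of 8 and -0.47. Without WT 116 these counts were 15, 5, 2, 1 and 0, and without WT 118 the T and NK, B cell and neutrophil counts were 6, 2 and 1. The Kupffer cell count was 15 to 17 whichever library was left out.

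The falls of single Kupffer cell genes differed in size, with Marco at 7.01-fold the largest of the 16 and Vsig4 at 1.69-fold the smallest. Csf1r, the receptor for macrophage colony-stimulating factor, had 1331, 1456 and 1955 as its lowest, median and highest value in descendants and 4428, 2923, 2989 and 2983 in WT. It fell 2.18-fold (-1.12 ± 0.11 SE, limma adjusted p = 0.00022). Clec4f, a lectin restricted to mouse Kupffer cells, fell 1.88-fold, Timd4 2.11-fold, Adgre1, which encodes F4/80, 1.99-fold and the complement subunit C1qa 2.02-fold. Laptm5, a lysosomal protein of blood cells chosen after its values were seen, had 390 to 485 in descendants and 805 to 1254 in WT. Its fall of 2.30-fold had one of the smallest adjusted p-values (limma, 8.69e-05).

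The summed level of the lists gave the same picture by library. Kupffer cell markers summed to 28870.0, 34142 and 38630.0 normalized counts as lowest, median and highest in descendants and to 74312, 39061, 53591 and 55612 in WT, so the groups were apart, by a small margin at WT 117. T and NK cell markers summed to 658, 763 and 942 in descendants and 2059, 951, 1340.0 and 1316 in WT. B cell markers and neutrophil markers overlapped between the groups, with neutrophil sums of 246 to 740 in descendants and 393 to 981 in WT. No marker of these 4 lists was at 0 in all libraries. The part of these cell type markers in the changes of immune and acute-phase genes was not tested.

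Hepatocyte, endothelial and stellate markers moved less, and over all genes tested 5.48% rose and 6.92% fell. Hepatocyte markers had 1 rise, Tat, in 19 genes and summed to 2974098 to 3937720.0 in descendants and 3276457 to 4620368 in WT. Of 18 sinusoidal endothelial markers 1 fell, Cdh5, by 1.40-fold (limma adjusted p = 0.00303), and the median was -0.16. Of 18 stellate cell and fibroblast markers 2 fell, Vim, which leukocytes also make, and Des, whose call was lost without WT 116 (limma adjusted p = 0.062). Among 8 cholangiocyte markers 2 fell and 1 rose. The falls were Krt18 and Krt8, keratins that hepatocytes make too, with 2815 to 4185 normalized counts of Krt18 in descendants and 5634 to 5955 in WT. The call of Krt8 was lost without WT 118 (limma adjusted p = 0.0553).

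Of 10 erythroid and platelet markers 3 fell, beside 6.92% of all genes tested, and the median of the 10 was -1.64. The globin Hbb-bs had 445, 2727 and 11899 as its lowest, median and highest descendant value, against 17264, 9417, 7031 and 15574 in WT. The groups overlapped through WTPP 2, and the call (limma adjusted p = 0.0432) was lost without any 1 of the WT libraries (0.0636 to 0.128). Tfrc, the transferrin receptor, which hepatocytes also make, fell 2.30-fold (limma adjusted p = 0.00225). The source of the globin transcripts was not tested.

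**Figure D4:**
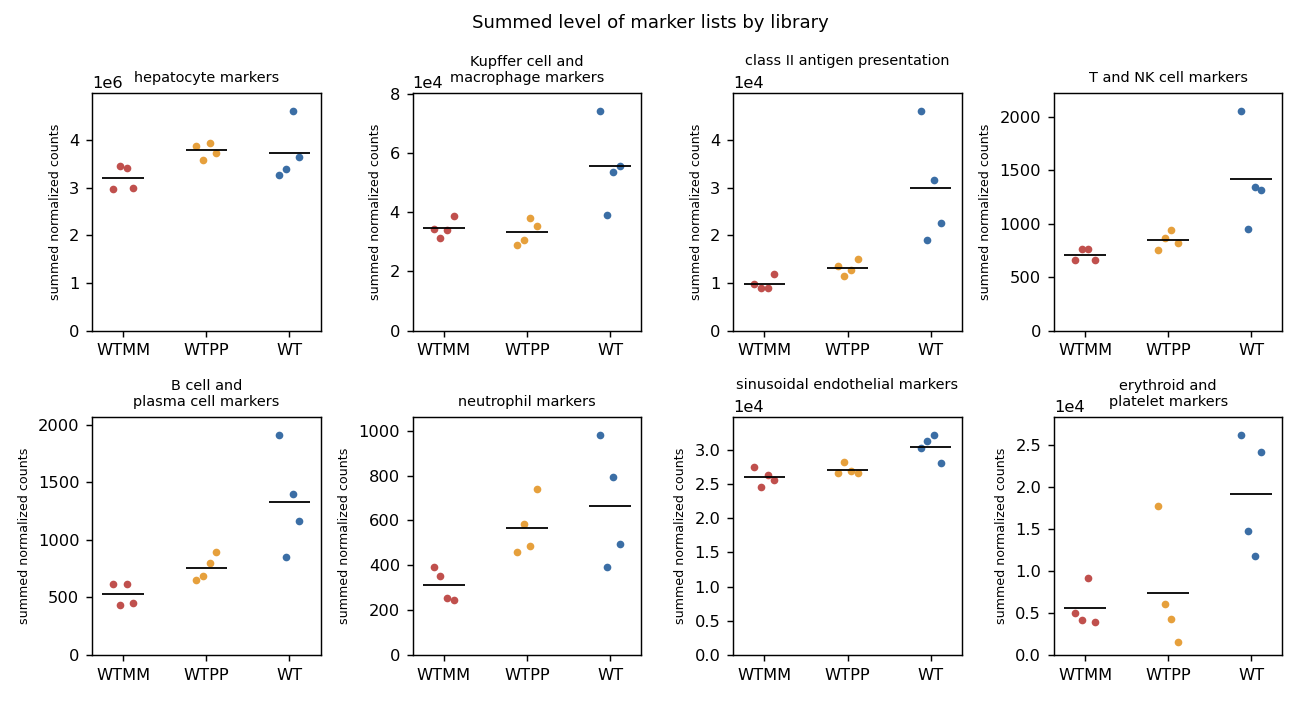
Summed normalized counts of 8 lists in every library, with WTMM (red), WTPP (orange) and WT (blue) from left to right and a line at each group mean (n = 4 libraries each). Kupffer, class II and T and NK lists lie below every WT library in all 8 descendants, WT 116 is the highest library in the class II, Kupffer, T and NK, B cell and neutrophil lists, and hepatocyte markers overlap.

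Stress and growth genes had calls in both directions, and over all genes tested 5.48% rose and 6.92% fell. Of 22 immediate early genes 3 rose and 2 fell: Jun, a subunit of AP-1, rose 2.10-fold beside Dusp1 and Nr4a1, while Egr1 fell 4.69-fold (limma adjusted p = 0.0199). The list had 0 falls without WT 116, WT 118 or WT 120 and 4 without WT 117. Nr4a1, an orphan nuclear receptor, had 51.5, 47.5, 40.9 and 37.5 normalized counts in WTMM. It had 104, 213, 262 and 260.3 in WTPP, against 41.3, 32.3, 35.5 and 35.9 in WT. Its rise of 2.55-fold thus came from WTPP, and the lineages differed by -2.14 (limma adjusted p = 0.000716). Of 21 p53 targets and growth arrest genes 4 rose and 1 fell, the rises including Gadd45g and Plk3, at 2.12-fold. The list had 2 rises without WT 116, WT 117 or WTMM 7 and 1 without WT 118. The call of Plk3 was lost without WT 116 (limma adjusted p = 0.059) and without WT 118 (0.058).

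Chaperones were lower in part, and some differed between the lineages. Of 24 heat shock genes 4 fell and 0 rose, beside 6.92% and 5.48% of all genes tested. Without WT 120 the falls numbered 2. Stip1, which links HSP70 to HSP90, fell 1.49-fold without overlap (limma adjusted p = 0.0169). Chordc1, an HSP90 cochaperone, fell 1.33-fold, but by 0.11 on the log2 scale in WTMM and 0.72 in WTPP, and its lineages differed (limma adjusted p = 0.00833). Hspa8, the constitutive HSP70 chosen after its values were seen, was not past the threshold against WT, while WTMM lay 1.07 above WTPP (limma adjusted p = 0.00149). Of 26 genes of the endoplasmic reticulum stress response, set beside the same shares, 3 fell and 1, Herpud1, rose, by 1.51-fold. The falls of this list numbered 0 without WT 116, WT 118 or WT 120, 8 without WT 117 and 7 without WTPP 3. Creld2 fell 2.13-fold, a call lost without WT 116, WT 118 or WT 120.

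Among 24 clock and output genes 1, Per1, rose, beside 5.48% of all genes tested. It had 319, 1219 and 1662 as its lowest, median and highest value in descendants and 313, 368, 369 and 379 in WT, a 2.95-fold rise (1.56 ± 0.31 SE, limma adjusted p = 0.00658) with WTPP 2 inside the WT range. Per2, chosen after its values were seen, was not past the threshold (log2 fold change -0.21 ± 0.46 SE). The times of collection are not in the labels.

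Lists of basic machinery and gene regulation had few calls, beside 5.48% higher and 6.92% lower among all genes tested. Cytosolic ribosomal proteins had 1 rise, Rpl30, and 1 fall, Rps13, in 37 genes. Rpl30 was higher in WTMM and not in WTPP, with a difference between lineages of 1.38 (limma adjusted p = 1.98e-05), and the call of Rps13 was lost without WT 116 (0.123) and without WT 118 (0.0607). Proteasome subunits had 1 fall in 31, and nuclear respiratory chain genes had 1 rise in 35. The 15 mitochondrially encoded genes, the 24 cell cycle genes and the 4 adipocyte markers had 0 calls. Among 29 genes of DNA and histone methylation Setdb1, a histone H3 lysine methyltransferase, rose 1.21-fold and Dnmt1, the maintenance DNA methyltransferase, fell 1.21-fold. Among 19 genes of the small RNA pathway Tnrc6b rose 1.27-fold and Ago2 fell 1.23-fold. The calls of Setdb1, Dnmt1, Tnrc6b and Ago2 were each lost without at least 1 of the WT libraries, with limma adjusted p between 0.0625 and 0.154. None of the 18 tested imprinted genes passed (median 0.08), and the most changed of them, Peg3, had limma adjusted p = 0.0896. Of the oocyte complex of Khdc3, 2 genes were tested, and Zbed3 had 73.9 to 120 normalized counts in descendants and 93.6 to 114 in WT.

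Antisense and lincRNA genes were called mostly as higher, and processed pseudogenes more often as lower. Of 247 tested genes annotated as antisense 27 rose, 10.9% against a background of 5.48%, and 2 fell. Of 264 lincRNA genes 22 rose, 8.33%, and 4 fell. Of 795 processed pseudogenes 15 rose and 27 fell, and of 12606 protein-coding genes 693 rose and 948 fell. Without WT 116 the antisense genes had 13 rises and 0 falls, the lincRNA genes 9 and 2, the processed pseudogenes 7 and 8 and the protein-coding genes 309 and 438. Prox1os, antisense to the hepatocyte factor Prox1, had 256, 293 and 328 as its lowest, median and highest value in descendants and 159, 161, 128 and 137 in WT, a 1.98-fold rise (limma adjusted p = 0.00022). Malat1, an abundant nuclear RNA, rose 1.55-fold. Prox1os and Malat1 were chosen after their values were seen. The library kit keeps strand, but whether the counting used it is not given in the sources used here, so reads of antisense genes may belong to their partners.

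The gene with the smallest adjusted p of all was a processed pseudogene, Gm5345 (chromosome 8, 40853828 to 40855027, minus strand, GRCm38), and it was chosen for that. It had 104, 112, 135 and 88.7 normalized counts in the WTMM livers. The WTPP livers had 92.8, 111, 133 and 118. In WT it had 0, 1.01, 3.13 and 2.34. The groups were far apart, with a rise of 48.6-fold over WT (5.60 ± 0.31 SE, limma adjusted p = 8.91e-07) with a difference between lineages of -0.05. Gm16348 (chromosome 8, 41218139 to 41220894, plus strand) lies 364 kb away and had 0 reads in WT and 220 in descendants, which makes it at least 41.3-fold higher when WT is set to 3 reads in all. The 3 tested genes that start between them did not pass: Slc7a2, an arginine transporter (limma adjusted p = 0.926), Mtus1 (0.372) and Fgl1 (0.072). Reads of a processed pseudogene can come from its parent gene, and such reads are uncertain.

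Most genes called against WT did not pass the test between the lineages. In the direct test of WTMM against WTPP, 603 genes passed, 4.17% of those tested. Of the 1795 genes called against WT, 124 also passed it, 6.91%, with 77 among the higher genes, 9.71%, and 47 among the lower genes, 4.69%. The median absolute difference between the lineages was 0.17 on the log2 scale for called genes and 0.15 for all genes. Of the 124 genes, 48 were further from WT in WTMM and 76 in WTPP, and 19 of the 1795 had opposite signs in the lineages. A missed threshold does not show that the lineages were equal.

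A few pooled calls came from a single lineage. Or5m3b, an olfactory receptor gene, had 205 to 514 normalized counts in WTMM, 0 to 3.09 in WTPP and 0 to 3.13 in WT. Cyp17a1, a steroid hydroxylase and lyase, had 106 to 284 in WTMM, 3315 to 4971 in WTPP and 154 to 465 in WT. Trhde, which degrades thyrotropin-releasing hormone, had 170.5 to 498 in WTMM, 10.1 to 34 in WTPP and 3.12 to 40.4 in WT. These 3 are called higher in the pooled contrast but overlap WT in the other lineage. Rps2, a ribosomal protein gene with many processed copies, had 488 to 551 in WTMM, 2286 to 5112 in WTPP and 580 to 709 in WT, and its lineages differed by -2.72 (limma adjusted p = 1.98e-05).

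The lower genes with the largest lineage differences were also below WT in 1 lineage each. Egfr, the EGF receptor, had 6896 to 13677 in WTMM, 2437 to 3231 in WTPP and 6645 to 13210.0 in WT, with a difference between lineages of 1.73 (limma adjusted p = 0.000802). Mmd2, a membrane protein, had 129 to 241 in WTMM, 414 to 918 in WTPP and 461 to 695 in WT. Spock2, a proteoglycan gene, had 5.91 to 15.8, 29.2 to 48.5 and 22.6 to 116 in WTMM, WTPP and WT. In a fit with 1 mean for all descendants and no lineage term, these 7 genes were not called, with limma adjusted p between 0.16 and 0.35. Trhde, Mmd2 and Spock2 were also not called without WT 116, with adjusted p between 0.0571 and 0.131.

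**Figure D5:**
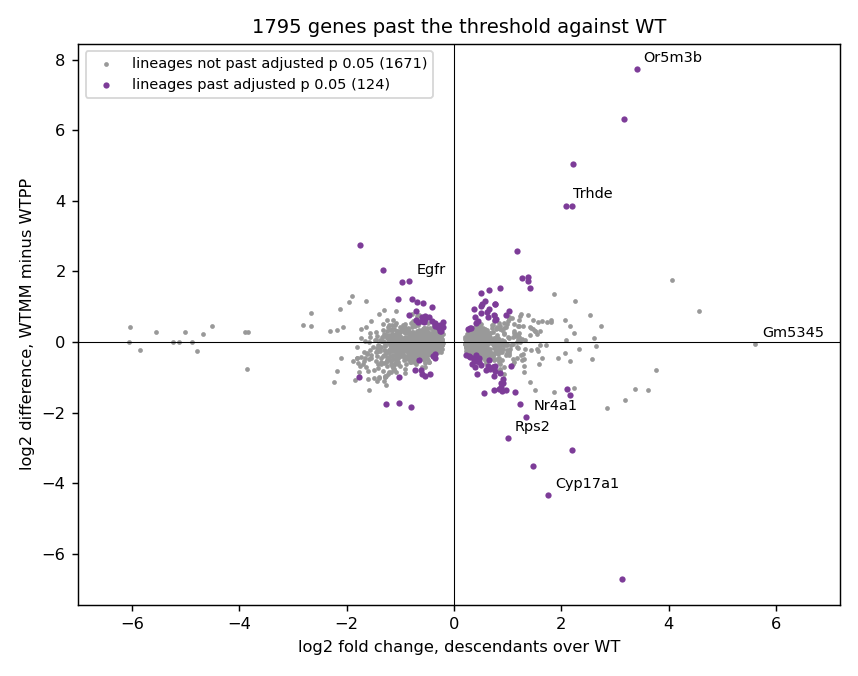
Log2 fold change of descendants over WT (horizontal axis) and log2 difference of WTMM minus WTPP (vertical axis) for the 1795 genes past the threshold against WT. Purple points are the 124 genes past the threshold between lineages, which spread up and down. Grey points are the other genes, with Gm5345 at the far right. Some grey points lie far from 0 on the vertical axis, such as Capn3 at 1.75 and Igfbp1 at -1.64.

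Called genes lay on all autosomes and the X chromosome. Around Khdc3 on chromosome 9, 50 tested genes start within 5 Mb, of which 7 were higher and 1 lower, 16% against 12.4% of all genes. The closest called gene was Pierce2, 0.122 Mb from Khdc3, which rose 1.40-fold (limma adjusted p = 0.0124). The lower gene was Anxa2, an annexin, and Lipc, hepatic lipase, was among the higher ones at 1.24-fold, a call lost without WT 116 (limma adjusted p = 0.0525) and without WT 118 (0.0711). By chromosome, the share of higher genes was largest on chromosome 13, 62 of 564 or 11%, and smallest among the autosomes on chromosome 7, 3.07%. The share of lower genes was largest on chromosome 17, 9.78%. On the X chromosome 3.10% were higher and 7.30% lower, and of the 21 tested mitochondrial genes 0 were called.

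The lower genes of chromosome 17 were concentrated at the histocompatibility complex. Of 208 windows of 2 Mb with at least 20 tested genes, the window from 34 to 36 Mb held most lower genes, 25 of 94 or 26.6%, and 15 without WT 116. Over all genes tested 6.92% fell, and this window was singled out after the values were seen. Besides the class II genes it holds Aif1, a macrophage gene, and the cytokine genes Tnf and Ltb.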

How the data were processed

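Liver RNA of 12 mice, 1 library each, was compared. Per the labels, RNA was taken with the Qiagen RNeasy lipid tissue kit and libraries were made with a strand-keeping NEB kit. Per the submitters' processing notes, cutadapt, HISAT2, DESeq2 and the build GRCm38 were used. The sources used here do not give their versions, their roles or the strand setting of the counting. The values the authors deposited are log2(normalized count + 0.1), and they were turned back into normalized counts. Dividing them by 1 step per library gave whole reads for 100% of the values checked (tolerance 0.001). This check left out values at 0 and the largest values. All values were rounded to whole reads, and these reads give the library totals.

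The tests are on log2(normalized count + 1) with limma 3.58.1 in R 4.3.3, fitted with 3 group means and a spread that follows expression level, and p-values were adjusted over all genes tested (Benjamini-Hochberg). Descendants are the mean of the WTMM and WTPP means. The step was tested on simulated data. Other tables were made with Python 3.11.15.

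Of 25069 gene IDs, 25016 matched GENCODE M21, which filled 342 of 395 blank symbols, and 531 genes had 0 reads in all libraries. The members and gene lists were chosen with earlier results of these data known. Named genes are Khdc3, the 12 highest and 12 lowest called genes with a mean of at least 50, no overlap and one sign in both lineages, 4 higher and 4 lower genes with the largest lineage differences, up to 2 genes of each list by p, and up to 4 called genes within 5 Mb of Khdc3. The choice of other genes named followed a look at their values. Some genes that the rule names are not reported here. Bounds for genes at 0 use a floor of 3 reads over the group, and intervals for ratios of reads are exact 95% intervals that cover counting error only. Alternatives changed the pseudocount, filter, scaling, spread, lineage term, test and libraries.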

Additional observations from a re-analysis of the deposited data

Results flagged for a closer look

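In 23 of 303 checked groups of 4 libraries, 1 library lay far from the other 3, where chance gives about 1 in 20. Genes that move together, such as the acinar genes in WT 116, are counted separately, so no excess over chance is read from this count. Of the 23, 7 were WT 116, 5 WT 117, 4 WTMM 7, 3 WTPP 3, 2 WTPP 7, 1 WTMM 8 and 1 WTMM 9. WT 116 was far above the other WT libraries for the acinar genes Cpb1 (407 normalized counts), Reg1 (276), Clps (124) and Try5 (186), for the macrophage gene Csf1r (4428), for Vim (1174) of the stellate cell and fibroblast list, and for Sp5 (24.9). WT 117 stood apart at mt-Nd1 (325563), Nr1i3 (6393), Plk3 (747), Mmd2 (461) and Sdhd (5503). WTMM 7 stood apart at Slc25a25 (18618), Plk3 (2101), C3 (243511) and mt-Nd1 (151631). WTMM 8 was high for Sc5d (15399) and WTMM 9 for Cidec (104.5). WTPP 3 stood apart at Hpx (86521), Gbp2 (319) and Tap2 (858), and WTPP 7 at C3 (181289) and Gm16348 (30.1).

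The lineages differed in 14 named genes that were also called against WT, by WTMM minus WTPP on the log2 scale in limma. H2-Eb1 and Hspa8, not past the threshold against WT, differed too and are given above. WTMM was above WTPP by 7.73 for Or5m3b, 3.87 for Trhde, 1.73 for Egfr, 1.38 for Rpl30, 0.78 for Mup3, 0.65 for Pck1 and 0.61 for Chordc1. The difference was -4.35 for Cyp17a1, -2.72 for Rps2, -2.14 for Nr4a1, -1.85 for Mmd2, -1.77 for Spock2, -1.33 for Trmt9b and -0.40 for Krt8.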

How the results depend on the processing

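Leaving out 1 library gave 358 to 861 higher genes and 457 to 1172 lower genes, with the lowest counts without WT 116 and the highest without WT 117, and 266 to 824 for the genes that differ between the lineages, lowest without WTMM 9. Without WT 116 and WT 117 together, an alternative chosen after seeing the data, 263 genes were higher and 459 lower. In these settings the genes tested stayed those chosen over all 12 libraries, and the cause was not tested. The other settings kept the 3 counts within 1.5 times. Among them, array weights gave 1179 higher and 1483 lower genes and no lineage term 572 and 788. The counts were 631 and 832 without a mean-variance trend, 600 and 812 without a filter, and 759 and 1111 with voom. Upper quartile scaling did not move the share of higher calls by over 10 points, at 38.3% against 44.2%. Of 99 named genes that were called, 56 kept the call in all 25 settings, 43 lost it at least once and 0 reversed. The replicate block gave 875 higher and 1074 lower genes. Only the numbers 6 and 7 are shared, by WTMM and WTPP, with correlations of deviations of -0.153 and -0.066, so they do not pair the samples. Genes with few reads are limited by depth.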
